A study of Mus musculus with 44 samples.

Results

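The genes described here build elastic fibres and the microfibrils on which these fibres form. They were listed as Fbln1, Fbln2, Fbln5, Efemp2, Eln, Fbn1, Fbn2, Mfap2 and Mfap5, and every probe set on the array types A, B and C whose annotated symbol was one of these 9 was taken. The rule found 18 of the 36701 probe sets, for 7 of the 9 genes: 4 each for Fbln1, Fbn2 and Mfap5, 2 each for Fbln2 and Eln, and 1 each for Fbln5 and Mfap2. Efemp2 and Fbn1 were not analysed here.

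RNA came from mouse calvarial (skull cap) osteoblast cultures carrying green fluorescent protein (GFP) under a type I collagen promoter fragment, with unsorted RNA and RNA of sorted GFP-positive and GFP-negative cells, each in 3 experiments on Affymetrix 74A arrays. The 3 groups at day 17 (unsorted, GFP-positive, GFP-negative; Exp100, Exp105, Exp106) carried pOBCol2.3GFP and were treated with ascorbic acid and beta-glycerophosphate, the additions used to let osteoblast cultures mineralise. The 3 groups at day 7 (unsorted, GFP-positive, GFP-negative; Exp99, Exp101, Exp103) carried pOBCol3.6GFP and had no additions. Day, transgene and additions therefore cannot be told apart in any comparison of the days. All cells came from 7-day newborn mice and grew in DMEM with serum. The GFP-negative fraction is defined by the absence of GFP alone, and can hold any other cell of the culture. Sorted RNA was also hybridised to array types B and C. So was unsorted RNA of Exp106, and those 2 arrays are quoted as single values only. The 3 samples of a group are told apart by experiment name alone, with no word on separate cultures or animals. A p-value here rests on the spread among such samples within groups. That spread was pooled over all groups of a fit and moderated over probe sets by limma.

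Elastic fibres consist of a core of cross-linked elastin, laid down on a scaffold of microfibrils. Fibrillins are the backbone of the microfibril, small microfibril-associated proteins bind to it, and fibulins bridge tropoelastin, the fibrillins and the cell surface. In bone and its periosteum, microfibrils are known as stores of latent growth factors of the TGF-beta family, and elastin itself is sparse in mineralised matrix.

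Promoter sequence is shown for 3 members, Fbln5, Mfap2 and Fbln2. The order of the sorted groups by mean was shared by Fbln5 and Fbln2 and differed in Mfap2. Each is the 250 bases before the annotated start in RefSeq's table for GRCm38.p6, 5′ to 3′ on the gene's own strand. Fbln5 lies at chr12:101819120-101819369 (minus strand), Mfap2 at chr4:141010174-141010423 (plus strand) and Fbln2 at chr6:91212514-91212763 (plus strand). Capitals mark matches on either strand to the core letters of a TATA box (TATAAA) and of sites for Sp (GGGCGG), AP-1 (TGANTCA), Runx (ACCACA) and TEAD factors (GGAATG).
Fbln5: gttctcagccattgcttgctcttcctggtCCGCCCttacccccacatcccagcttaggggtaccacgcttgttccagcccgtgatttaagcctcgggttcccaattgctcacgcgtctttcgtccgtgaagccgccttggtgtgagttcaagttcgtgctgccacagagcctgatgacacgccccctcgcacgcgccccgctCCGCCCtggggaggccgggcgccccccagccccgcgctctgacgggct
Mfap2: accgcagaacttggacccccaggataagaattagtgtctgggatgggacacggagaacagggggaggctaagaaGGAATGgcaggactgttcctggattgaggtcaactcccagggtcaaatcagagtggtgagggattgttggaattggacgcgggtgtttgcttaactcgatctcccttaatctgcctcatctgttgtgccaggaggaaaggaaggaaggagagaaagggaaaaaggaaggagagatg
Fbln2: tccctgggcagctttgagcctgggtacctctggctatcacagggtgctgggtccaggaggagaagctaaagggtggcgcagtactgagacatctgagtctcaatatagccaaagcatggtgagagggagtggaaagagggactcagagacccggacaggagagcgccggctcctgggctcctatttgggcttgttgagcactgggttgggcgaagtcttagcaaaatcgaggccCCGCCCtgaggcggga
Fbln5 held 2 copies of GGGCGG, beginning 221 and 48 bases before the start, and Fbln2 held 1, at 16 bases, all as CCGCCC on the strand shown. Of 32851 promoter windows of this length, 32.7% held GGGCGG. Mfap2 held 1 copy of GGAATG, at 176 bases, against 12.6% of windows. The TATA, AP-1 and Runx letters (in 12.4%, 6.75% and 14% of windows) had no match in these 3 windows. These are letter matches only. The table matched 6 of the 9 genes, and sequence is shown for only these 3 of them. Where a gene had more than 1 annotated start, the outermost was taken.

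The values below are normalised intensities, the deposited linear intensities after quantile normalization within each array type. Each probe set has its own response, so no level is set against that of another probe set. Differences are in log2(normalised intensity + 32), which understates changes of dim probe sets, and carry their standard error (SE) from limma fits of 3 samples per group. A call is a Benjamini-Hochberg adjusted p under 0.05 over all probe sets tested, 22099 between sorted fractions and 7455 with unsorted cells. Of the 18 probe sets, 15 exceeded their array's median on at least 3 arrays and were tested between sorted fractions. The other 3 (Fbln1 161628_r_at, Fbln2 165843_i_at and Eln 92207_at) lay at or below the median on all but 1 array and were not tested. Their normalised intensities ran over all samples from 34.5 to 109.6, from 118 to 693 and from 10.8 to 357. The median of normalised values was 565 on array A, 846 on B and 643 on C. Per-sample values are in the order Exp100, Exp105, Exp106 for day 17 and Exp99, Exp101, Exp103 for day 7.

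The day 17 samples of Exp106 stood apart: they correlated with the other sorted samples at a mean r of 0.839 on array A, 0.772 on B and 0.771 on C, against 0.943, 0.900 and 0.814 among those others. Osteoblast markers (7 genes with a probe set) summed to 334755 to 378506 in the 3 GFP-positive and 262547 to 285527 in the 3 GFP-negative samples of day 17, and to 97802 to 165483 in GFP-positive and 83656 to 210324 in GFP-negative samples of day 7.

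At day 17, Fbn2, Mfap2 and Mfap5, which belong to the microfibril, and Fbln5, the fibulin that brings elastin to it, were each lower in GFP-positive than in GFP-negative cells on 1 probe set. Eln, Fbln1 and Fbln2 were not called, although 1 probe set of each had all 3 GFP-positive values below all 3 GFP-negative ones. The call was thus met by 4 of 15 probe sets, with intensities 4.53 to 12 times lower on the fitted scale, and by 0 in the other direction. Over all probe sets 1.28% were called in either direction and 0.991% as lower. Fractions of 1 experiment share its name, and a fit with experiment as a block called 8 of the 15 as lower, against 2.21% of all probe sets (3.21% in either direction). The 3 GFP-positive values lay wholly below the 3 GFP-negative values in 10 of the 15, against 7.43% of all probe sets. With 1 representative probe set for each gene, the median difference of the 7 genes was -2.18, against -0.01 over all probe sets tested. Over the 15 member probe sets it was -1.64. The members were chosen with earlier results of these data known, so these shares and medians are a description. In sorted bulk RNA, fewer cells of a type and less RNA per cell cannot be told apart.

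**Figure D1:**
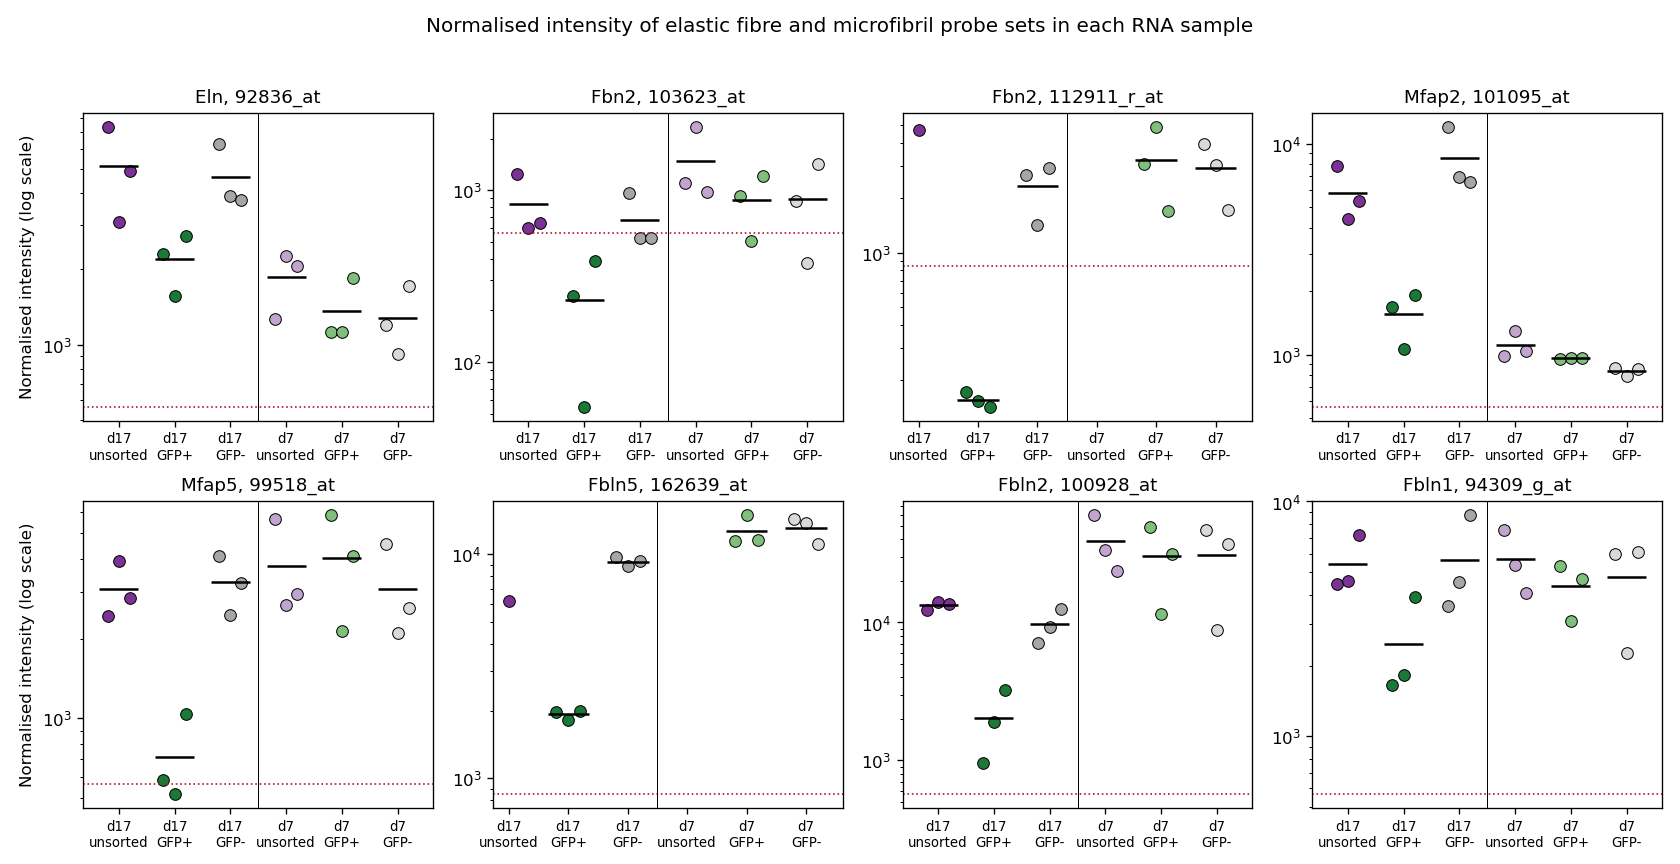
Normalised intensity (log axis) of 8 probe sets in each RNA sample, in the order unsorted, GFP-positive and GFP-negative at day 17 and the same at day 7; points are single experiments, bars the mean of 3, and dotted lines the median of the array type. Fbln5, Fbn2 112911_r_at and Mfap2 are lower in all 3 day 17 GFP-positive samples than in all 3 day 17 GFP-negative samples, while the day 7 fractions of Fbln5 and Fbn2 112911_r_at overlap; these 2 were on array B, where the unsorted value is that of Exp106 alone.

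Elastin (Eln, the rubber-like core protein) had 2297, 1561 and 2711 units on probe set 92836_at in day 17 GFP-positive cells, against 6294, 3911 and 3747 in GFP-negative cells. The groups did not overlap, and the means were 2189.7 ± 583 in GFP-positive cells, against 4651 ± 1425 in GFP-negative cells (SD, n = 3 each). The difference of -1.07 ± 0.34 was not called (adjusted p = 0.204, and 0.0629 with experiment as a block). Within Exp100, Exp105 and Exp106 it was -1.44, -1.31 and -0.46, so all 3 experiments lay below 0 and Exp106 was nearest to it. The call was met with experiment as a random block (adjusted p = 0.0365), and without Exp106 with a fixed block (0.0212).

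Fibrillin-2 (Fbn2, the fibrillin best known from developing tissue) was lower in GFP-positive than in GFP-negative cells in all 3 day 17 experiments on 3 of its 4 probe sets, and in Exp100 and Exp105 but not in Exp106 on the fourth. Probe set 112911_r_at on array B had 172, 154 and 143 units in GFP-positive cells, against 2658, 1411 and 2913 in GFP-negative cells. All 3 GFP-positive values lay below the array's median and all 3 GFP-negative values above it. It fell 12-fold, a log2 difference of -3.58 ± 0.43 (adjusted p = 0.00202, and 0.0112 without Exp106). The call was not met in a fit of only these 2 groups (adjusted p = 0.0626). Suffixes r and f in the probe set name are Affymetrix marks for probes picked under relaxed rules or shared with related sequences.

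The other probe sets of Fbn2 were less clear. On array A, 103623_at had 243, 54.9 and 388 units in GFP-positive and 963, 525 and 527 in GFP-negative cells, without overlap but at or below the array's median in 5 of 6 samples. Its difference was -1.65 ± 0.65 (adjusted p = 0.362). Probe set 112910_f_at had 1364, 1558 and 129 units in GFP-positive and 2645, 2822 and 1659 in GFP-negative cells, a difference of -1.73 ± 0.67 (adjusted p = 0.354) that was -0.89 without Exp106, whose GFP-positive value was by far the lowest. On array C, 130307_f_at showed -0.07 ± 0.71 (adjusted p = 0.993), with 204, 80.0 and 754 units in GFP-positive cells, against 236, 231 and 307 in GFP-negative cells. The GFP-positive value of Exp106 was the highest of these 6, and the other 2 were the lowest.

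Mfap2 (MAGP-1, a small glycoprotein bound along fibrillin microfibrils) had 1687, 1063 and 1912 units in day 17 GFP-positive cells, against 12000.5, 6978 and 6578 in GFP-negative cells. The highest GFP-positive value was far below the lowest GFP-negative one. It fell 5.34-fold, a log2 difference of -2.42 ± 0.30 (adjusted p = 0.00206, and 0.00251 without Exp106). Within the experiments the differences were -2.81, -2.68 and -1.77, smallest in Exp106. In a fit of only these 2 groups the adjusted p was 0.0706.

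Mfap5 (MAGP-2, the related microfibril glycoprotein that also binds Notch pathway proteins) had 585, 517 and 1037 units on probe set 99518_at in day 17 GFP-positive cells, against 4101, 2447 and 3244 in GFP-negative cells. The groups did not overlap, and 1 GFP-positive value lay below the array's median. It fell 4.53-fold, a log2 difference of -2.18 ± 0.42 (adjusted p = 0.0264, and 0.0292 without Exp106). This call was lost when any of 5 samples was left out. The adjusted p was 0.0969 without the GFP-positive sample of Exp100 and 0.106 without that of Exp105. It was 0.132, 0.0539 and 0.0612 without the GFP-negative sample of Exp100, Exp105 and Exp106. A fit of only these 2 groups gave 0.106.

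A second Mfap5 probe set of high signal, 131248_at on array C, had 2428, 937 and 2099 units in GFP-positive and 5653, 4942 and 3421 in GFP-negative cells, again without overlap. Its difference of -1.42 ± 0.48 had an adjusted p of 0.243, and of 0.0483 with the block. The remaining pair, 99517_at and 169062_at, had group means of 473 ± 66.0 and 1105 ± 541 in GFP-positive and 581 ± 201 and 795 ± 862 in GFP-negative cells (SD, n = 3 each). Their differences were -0.24 ± 0.41 (adjusted p = 0.932) and 0.84 ± 0.66 (adjusted p = 0.778), so 169062_at gave the opposite sign without a call. It was above the array's median in 3 of these 6 samples.

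Fbln5 (fibulin-5, which binds tropoelastin and cell-surface integrins and is needed for elastic fibre assembly in mice) had 1967, 1820.5 and 1997 units in day 17 GFP-positive cells, against 9713, 8842 and 9329.9 in GFP-negative cells. The means were 1928 ± 94.5 in GFP-positive cells, against 9295 ± 437 in GFP-negative cells (SD, n = 3 each), so the gap was many times the spread within each group. It fell 4.76-fold, a log2 difference of -2.25 ± 0.19 (adjusted p = 4.19e-04, and 7.36e-04 without Exp106). Within the experiments it was -2.29, -2.26 and -2.21, which makes it the most even of the members called. The 18 alternative settings tried all kept the call, with adjusted p of 1.46e-05 to 0.033. The unsorted RNA of Exp106, the one unsorted sample on array B, had 6215 units, between its sorted fractions.

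Fbln2 (fibulin-2, found on the surface of microfibrils and in basement membranes) had 964, 1882 and 3225 units in day 17 GFP-positive cells, against 7063, 9330 and 12616 in GFP-negative cells. The groups did not overlap, but each varied widely between experiments, with Exp106 highest in both fractions. The difference of -2.36 ± 0.66, 5.13-fold lower, had an adjusted p of 0.141 without a block and of 0.00241 with experiment as a block. Within the experiments it was -2.83, -2.29 and -1.96.

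Fbln1 (fibulin-1, which binds fibronectin, laminin and elastin) was measured by 3 tested probe sets that did not give 1 answer. Probe set 94307_at had 485, 454 and 568 units in GFP-positive cells, against 1325, 1615 and 2021 in GFP-negative cells, without overlap. Its difference of -1.64 ± 0.37 had an adjusted p of 0.0579, of 0.013 with the block and of 0.0472 without the GFP-positive sample of Exp106. With all of Exp106 left out the adjusted p was 0.0871, and on the deposited scale 0.089. Probe set 94309_g_at had 1654, 1826 and 3926 units in GFP-positive and 3584, 4556 and 8786 in GFP-negative cells, which overlap through Exp106 although each experiment was lower by -1.10, -1.30 and -1.16 on the log2 scale as GFP-positive minus GFP-negative. Its adjusted p was 0.364, and 0.0214 with the block. Probe set 94308_at, with 1956, 1578 and 3887 units in GFP-positive and 2104, 2553 and 3702 in GFP-negative cells, showed -0.24 ± 0.36 (adjusted p = 0.919).

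**Figure D2:**
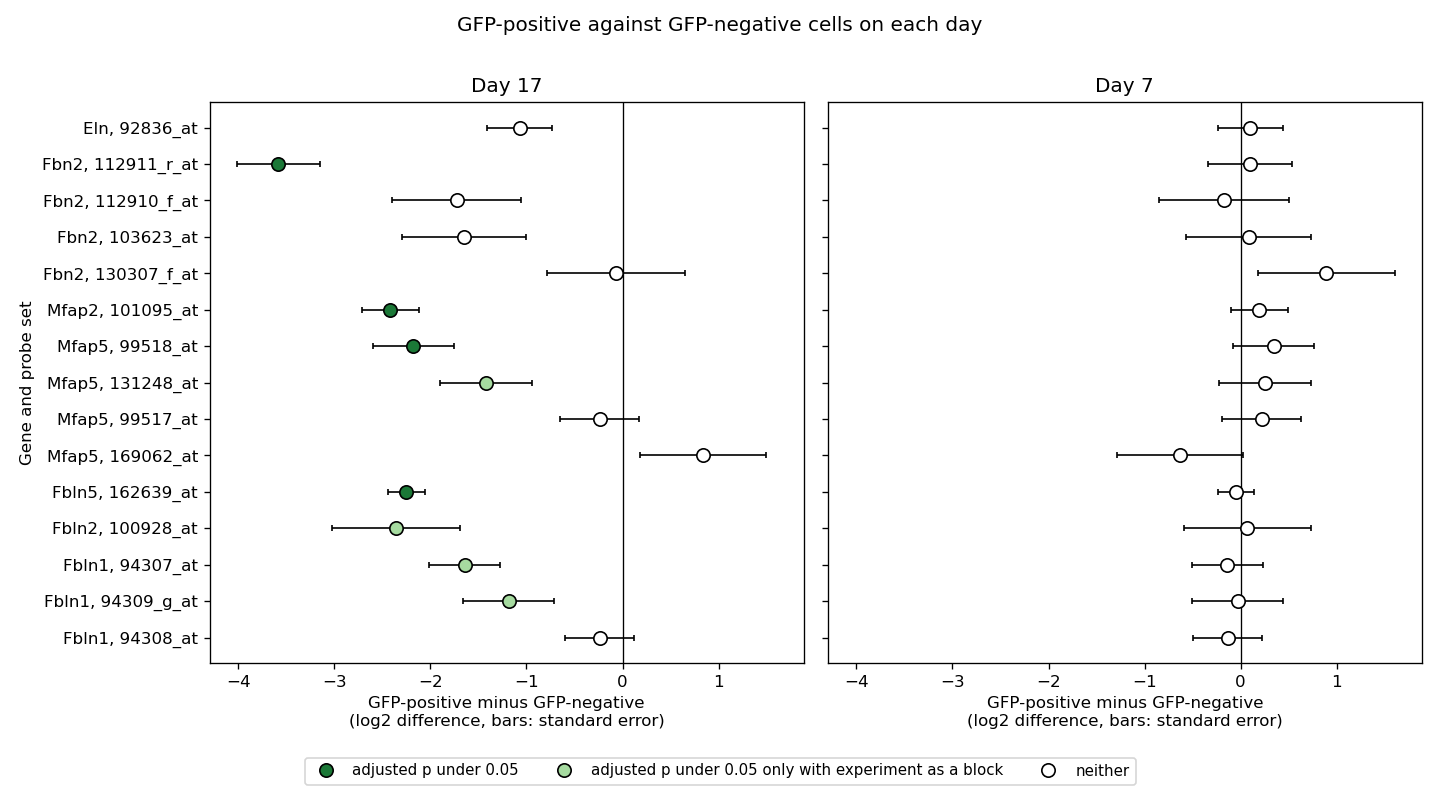
GFP-positive minus GFP-negative log2 difference with its SE for the 15 tested probe sets, day 17 left and day 7 right; dark points were called by limma and light points only with experiment as a block. At day 17, 14 of 15 points lie below 0, and at day 7 all 15 lie between -0.63 and 0.89.

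Some markers of other cell types moved with this comparison at day 17. Over all probe sets 0.991% were called lower, and 2.21% with experiment as a block. Fibroblast and progenitor markers (11 genes) summed to 109896 to 136106 in GFP-positive and 194684 to 249028 in GFP-negative cells, and 3 of 9 tested were called lower, 4 with the block. Smooth muscle and pericyte markers (10 genes) summed to 17864 to 22094 in GFP-positive and 33909 to 56306 in GFP-negative cells, and 2 of 7 were called lower, while the block gave 3 lower and 1 higher. Macrophage and leukocyte markers (13 genes) summed to 14516 to 63103 in GFP-positive and 49332 to 96316 in GFP-negative cells, with 0 of 11 called, and 1 lower with the block. Skeletal muscle markers (10 genes) summed to 6388 to 7009 in GFP-positive and 7830 to 8555 in GFP-negative cells, endothelial markers (8 genes) to 6220 to 7930 in GFP-positive and 7981 to 12315 in GFP-negative cells, and chondrocyte markers (8 genes) to 6586 to 12094 in GFP-positive and 9526 to 15785 in GFP-negative cells, with 0 called in these 3 lists, with or without the block. Of the 6 osteoblast markers tested 0 were called, and 3 were higher in GFP-positive cells with the block. The part of such cells in the differences above was not tested.

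At day 7, none of the 15 probe sets was called between GFP-positive and GFP-negative cells. Over all 22099 probe sets limma called 0 (0%), with or without the block, and 396 (1.79%) had an unadjusted p under 0.05. Member differences ran from -0.63 to 0.89. Fbln5 had 11458, 15055 and 11642 units in GFP-positive and 14361, 13865 and 11118 in GFP-negative cells, a difference of -0.05 ± 0.19. Its fractions overlapped, and its SE was the smallest of the members.

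Mfap5 99518_at had 5859, 2135 and 4096 units in day 7 GFP-positive and 4539.6, 2089 and 2611 in GFP-negative cells, a difference of 0.35 ± 0.42, with GFP-positive cells higher in each experiment. Fbn2 112911_r_at had 3045, 4882 and 1687 units in GFP-positive and 3926, 3036 and 1721 in GFP-negative cells, with overlap (0.10 ± 0.43). Fbln2 had 49030.5, 11589 and 31134 units in GFP-positive and 46809.7, 8828 and 37015 in GFP-negative cells (0.07 ± 0.66), with Exp101 lowest in both fractions. Mfap2 was the one of the 15 tested probe sets whose fractions did not overlap, with 958, 963 and 963 units in GFP-positive and 865, 791 and 855 in GFP-negative cells, where 3.36% of all probe sets lay apart in this direction. That difference of 0.19 ± 0.30 was -0.01 on the deposited scale, so its direction depends on the scaling. The dim Fbln2 probe set 165843_i_at, which was not tested, also lay apart at day 7 and in the other direction, with 233, 181 and 295 units in GFP-positive cells, against 693, 499.9 and 326 in GFP-negative cells. Macrophage and leukocyte marker sums were 3588 to 4050 in GFP-positive and 11079 to 26990 in GFP-negative cells at day 7. Skeletal muscle sums were 8114 to 10643 in GFP-positive and 13034 to 20425 in GFP-negative cells. Chondrocyte sums were 3319 to 6051 in GFP-positive and 9640 to 19404 in GFP-negative cells. The sums of the other lists overlapped between the fractions.

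The GFP difference at day 17 minus that at day 7 was tested as an interaction. The call was met by 3 of 15 probe sets, all lower, where 0.222% of all probe sets were called and 0.19% called lower. Fbln5 showed -2.20 ± 0.27 (adjusted p = 0.0161), Fbn2 112911_r_at -3.68 ± 0.61 (0.0394) and Mfap2 -2.61 ± 0.42 (0.0385). These 3 calls were close to the threshold. Without Exp106 the adjusted p was 0.00665 for Fbln5, 0.0144 for Mfap2 and 0.0573 for Fbn2. Of the marker lists, 1 of 9 fibroblast and progenitor and 1 of 7 smooth muscle and pericyte genes were called lower in the interaction, and 0 in the other lists.

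Of the 12 sorted samples left out 1 at a time, 8 ended the Fbln5 interaction call (adjusted p of 0.0555 to 0.0926), 11 that of Fbn2 112911_r_at (0.0584 to 0.141) and 10 that of Mfap2 (0.0709 to 0.119). The samples that left a call in place were the day 17 GFP-positive ones of Exp100 and Exp106, the day 17 GFP-negative one of Exp106 and the day 7 GFP-positive one of Exp99 for Fbln5. They were the day 17 GFP-positive one of Exp106 for Fbn2 112911_r_at, and both sorted samples of Exp106 for Mfap2. With experiment as a block, 5 probe sets were called lower, against 0.484% of all probe sets in either direction. The added ones were Fbln2 (-2.43 ± 0.94, adjusted p = 0.685 without and 0.0222 with the block) and Mfap5 99518_at (-2.52 ± 0.60, 0.184 and 0.0416).

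Day 17 GFP-positive cells were lower than day 7 GFP-positive cells in 5 of 15 probe sets, from Fbln2, Fbln5, Fbn2 and Mfap5, and 0 were called higher. Over all probe sets 4.85% were called, 3.19% as lower. Fbln2 had 964, 1882 and 3225 units at day 17 and 49030.5, 11589 and 31134 at day 7. The groups were apart, and it fell 14.2-fold, a log2 difference of -3.83 ± 0.66 (adjusted p = 0.00665). Fbln5, with means of 1928 ± 94.5 at day 17 and 12718 ± 2026 at day 7 (SD, n = 3 each), fell 6.46-fold, a log2 difference of -2.69 ± 0.19 (adjusted p = 5.66e-05).

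Fbn2 112911_r_at, at means of 156 ± 14.4 at day 17 and 3205 ± 1604 at day 7, fell, with a log2 difference of -3.98 ± 0.43 (adjusted p = 5.36e-04). Mfap5 fell, with a log2 difference of -2.40 ± 0.42 on 99518_at (adjusted p = 0.00728) and by -2.11 ± 0.48 on 131248_at (0.0266). Probe set 131248_at had 2428, 937 and 2099 units at day 17 and 13782, 5052 and 5749 at day 7. Its call was lost without the day 17 GFP-positive sample of Exp105 (adjusted p = 0.0876) and without the day 7 one of Exp99 (0.112) or Exp103 (0.0575). Without Exp106, when 11.1% of all probe sets were called, 2 more Fbn2 probe sets passed, 103623_at (adjusted p = 0.111 with it and 0.0491 without it) and 112910_f_at (0.0941 and 0.00851). For 112910_f_at, leaving out the GFP-positive sample alone gave 0.0405.

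Some markers of other cell types moved with this comparison too, where 3.19% of all probe sets were called lower and 1.66% higher. Smooth muscle and pericyte markers summed to 17864 to 22094 at day 17 and 59536 to 64276 at day 7, and 4 of 7 tested were called lower. Fibroblast and progenitor markers summed to 109896 to 136106 at day 17 and 103527 to 123534 at day 7, with 2 of 9 called lower. Macrophage and leukocyte markers summed to 14516 to 63103 at day 17 and 3588 to 4050 at day 7, with 5 of 11 called higher. Of the chondrocyte markers 1 of 4 was called higher, and of the osteoblast markers 4 of 6. The part of such cells was not tested.

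Eln and Mfap2 did not share this direction. Eln had 2297, 1561 and 2711 units in day 17 and 1124, 1122 and 1840.1 in day 7 GFP-positive cells, with overlap (0.68 ± 0.34, adjusted p = 0.311). Mfap2 was apart and higher, at 1687, 1063 and 1912 units against 958, 963 and 963, but the difference of 0.63 ± 0.30 was not called (adjusted p = 0.271). The 3 tested Fbln1 probe sets were not called, with -1.28 ± 0.37 for 94307_at (adjusted p = 0.0727).

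In GFP-negative cells the called members were Mfap2 and Eln, both higher at day 17, and 0 of 15 were called lower. Over all probe sets 0.434% were called, 0.222% as higher. Mfap2 had 12000.5, 6978 and 6578 units at day 17, against 865, 791 and 855 at day 7. Every day 17 value was far above every day 7 value, and it rose 9.48-fold, a log2 difference of 3.24 ± 0.30 (adjusted p = 0.00103, and 0.00115 without Exp106). Eln had 6294, 3911 and 3747 units at day 17, against 1196, 914 and 1707 at day 7, also apart, and rose 3.60-fold, a log2 difference of 1.85 ± 0.34 (adjusted p = 0.0457). Leaving out any 1 of the 6 GFP-negative samples ended the Eln call, with adjusted p of 0.153, 0.111 and 0.0604 without Exp100, Exp105 and Exp106, and of 0.19, 0.166 and 0.0888 without Exp99, Exp101 and Exp103. On the deposited scale it was 0.0954. Marker sums of several cell types also moved. Fibroblast and progenitor markers summed to 194684 to 249028 at day 17 and 93942 to 119671 at day 7, with 3 of 9 called higher. Osteoblast markers summed to 262547 to 285527 at day 17 and 83656 to 210324 at day 7, with 2 of 6 called higher. Macrophage and leukocyte markers summed to 49332 to 96316 at day 17 and 11079 to 26990 at day 7, with 0 of 11 called. Skeletal muscle markers summed to 7830 to 8555 at day 17 and 13034 to 20425 at day 7, with 1 of 6 called lower. In the other lists 0 were called. The part of such cells in the Mfap2 and Eln differences was not tested.

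Fbln5 was 9713, 8842 and 9329.9 units in day 17 and 14361, 13865 and 11118 in day 7 GFP-negative cells, apart but not called (-0.49 ± 0.19, adjusted p = 0.366). Fbln2 had 7063, 9330 and 12616 units at day 17 and 46809.7, 8828 and 37015 at day 7 (-1.40 ± 0.66, adjusted p = 0.469), where the day 7 value of Exp101 lay within the day 17 range. Mfap5 99518_at (0.13 ± 0.42) and Fbn2 112911_r_at (-0.30 ± 0.43) overlapped between days, with adjusted p of 0.931 and 0.834.

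The order of the 4 sorted groups by mean therefore differed between members. Fbln5 was lowest in day 17 GFP-positive, then day 17 GFP-negative, then both day 7 fractions, which overlapped. Fbln2 had the same order of means, but its day 7 values of Exp101 lay within the range of day 17 GFP-negative cells. Fbn2 112911_r_at and Mfap5 99518_at were lowest in day 17 GFP-positive cells, and their other 3 groups overlapped. Mfap2 ran from day 7 GFP-negative and day 7 GFP-positive, which no test told apart, through day 17 GFP-positive to day 17 GFP-negative. Eln ran in the order of Mfap2, and its day 7 fractions overlapped with each other and with day 17 GFP-positive cells.

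Unsorted cultures were measured on array A, where 9 probe sets of 6 genes were tested. Mfap2 and Eln were called, both higher at day 17 than at day 7, and 0 of 9 were called lower, against 5.71% of all probe sets in either direction and 3.04% as higher. Mfap2 had 7841, 4392 and 5352 units at day 17, against 983, 1298 and 1035 at day 7, without overlap. It rose 5.07-fold, a log2 difference of 2.34 ± 0.27 (adjusted p = 1.90e-04, and 1.05e-04 without Exp106). Eln had 7353, 3074 and 4928 units at day 17, against 1259, 2251 and 2064 at day 7, also without overlap. It rose 2.64-fold, a log2 difference of 1.40 ± 0.36 (adjusted p = 0.0329).

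The Eln call was lost without the day 17 unsorted sample of Exp100 (adjusted p = 0.114) or Exp106 (0.0964) and without the day 7 one of Exp99 (0.139), Exp101 (0.058) or Exp103 (0.0861). On the deposited scale it had an adjusted p of 0.0534, and the median of all probe sets moved to 0.05 there, against -0.09 after normalization. Fbln2 had 12386, 14070.1 and 13709.6 units at day 17, against 60540.2, 33570.3 and 23779 at day 7. All 3 day 17 values were lower, but the difference of -1.44 ± 0.61 was not called (adjusted p = 0.183). Mfap5 99518_at (-0.23 ± 0.41), Fbn2 103623_at (-0.77 ± 0.58) and the Fbln1 probe sets overlapped between days.

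In unsorted cells, macrophage and leukocyte markers (13 genes on array A) summed to 129989 to 171733 at day 17 and 14221 to 31322 at day 7, with 9 of 12 tested called higher. Fibroblast and progenitor markers (9 genes on array A) summed to 125454 to 179520 at day 17 and 98603 to 105205 at day 7, with 2 of 8 called higher. Osteoblast markers had 4 of 6 called higher and skeletal muscle markers 3 of 7 lower. Their part was not tested.

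**Figure D3:**
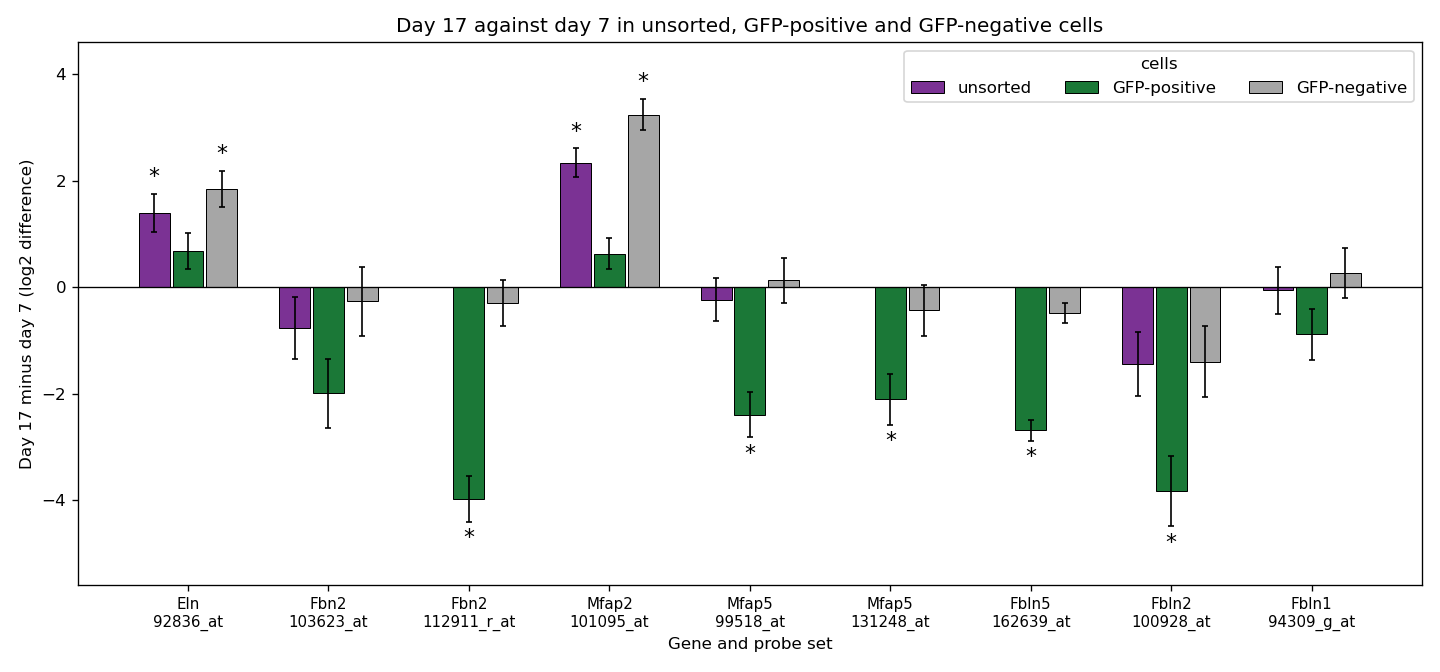
Day 17 minus day 7 log2 difference with its SE in unsorted, GFP-positive and GFP-negative cells for 9 probe sets. An asterisk marks an adjusted p under 0.05. A missing bar marks a probe set of array B or C, where unsorted cells entered no fit. Called differences lie below 0 in GFP-positive cells and above 0 in unsorted and GFP-negative cells.

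Unsorted cells were also set against the mean of the sorted fractions, taken over their log2 values with equal weight. Where the fractions differ, an even mix of them lies above that mean. A difference above 0 therefore does not by itself place unsorted cells above both fractions. At day 7, 0 of 9 probe sets were called, as were 0 (0%) of all probe sets by limma with or without the block, with 59 (0.791%) at an unadjusted p under 0.05. At day 17, 0 of 9 were called without a block, against 1.6% of all probe sets. With experiment as a block 4 were called, all higher in unsorted cells, against 12.3% of all probe sets in either direction. Fbln2 had 12386, 14070.1 and 13709.6 units in unsorted cells, above both fractions in Exp100, Exp105 and Exp106, and its difference was 1.69 ± 0.53 (adjusted p = 0.124, and 0.00666 with the block). Without the GFP-positive sample of Exp106 its adjusted p without a block was 0.0454.

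Fbln1 94307_at (1.0 ± 0.29, adjusted p = 0.0988 without and 0.0113 with the block), Mfap5 99518_at (1.0 ± 0.35, 0.179 and 0.0143) and Mfap2 (0.68 ± 0.24, 0.168 and 0.0191) were the other 3. Mfap2 in unsorted cells lay between the fractions in each experiment, while Fbln1 94307_at was above both in each. Scaling matters here: the median of all probe sets at day 17 was -0.03 after normalization and 0.23 on the deposited scale, and at day 7 -0.01 and 0.12. These 4 differences lay above 0 on both scales, and above both medians. With the block, 11 of 12 macrophage and leukocyte, 2 of 6 smooth muscle and pericyte and 1 of 8 fibroblast and progenitor markers were also higher in unsorted cells at day 17, and their part was not tested.

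A list of 47 further genes that cross-link, bind, cut or anchor elastic fibres and microfibrils was examined in the same fits, and 35 of them were tested through 1 probe set each. Between day 17 GFP-positive and GFP-negative cells 1 of 35 was called lower and 0 higher, with a median difference of -0.36, against 0.991% of all probe sets called lower and a median of -0.01. With the block 5 of 35 were lower, against 2.21% of all probe sets. The called gene was Itgb5, an integrin subunit for RGD-containing matrix proteins (-1.26 ± 0.27, adjusted p = 0.0481). The 4 added by the block were Ltbp2, a microfibril protein of the latent TGF-beta binding family (-2.0 ± 0.58, adjusted p = 0.16 without and 0.0465 with the block), Mfap4, an elastin and fibrillin binder (-1.87 ± 0.42, 0.0551 and 0.0198), Vcan, the proteoglycan versican (-1.74 ± 0.60, 0.261 and 0.0404), and Svep1, a large adhesion protein (-1.86 ± 0.94, 0.545 and 0.0428).

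The cross-linking enzymes were not called: Lox showed 0.18 ± 0.40 (adjusted p = 0.952) and Loxl1 -0.36 ± 0.33 (0.823). Fbln7, another fibulin, was the highest of the list, at 1.98 ± 0.67 (adjusted p = 0.247). At day 7, 0 of 35 were called, and for the interaction 0 of 35.

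In GFP-positive cells of day 17 against day 7, 2 of 35 were called higher and 3 lower, against 1.66% of all probe sets called higher and 3.19% lower. The median was -0.33, and -0.06 over all probe sets. The higher ones were Ctss (4.22 ± 0.61, adjusted p = 0.0022) and Ctsk (0.78 ± 0.19, 0.0395), cathepsins that can cut elastin. Ctss is itself on the macrophage and leukocyte marker list, so the sums given above for this comparison include it. The part of phagocytes was not tested. The lower ones were Efemp1, or fibulin-3 (-2.39 ± 0.50, adjusted p = 0.0174), Itgb5 (-1.40 ± 0.27, 0.0126) and the cathepsin Ctsl (-1.22 ± 0.25, 0.0157). In GFP-negative cells Ctsk was called higher (1.04 ± 0.19, adjusted p = 0.0457) and 0 were called lower, against 0.222% of all probe sets called higher. The median was 0.37, and -0.04 over all probe sets.

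**Figure D4:**
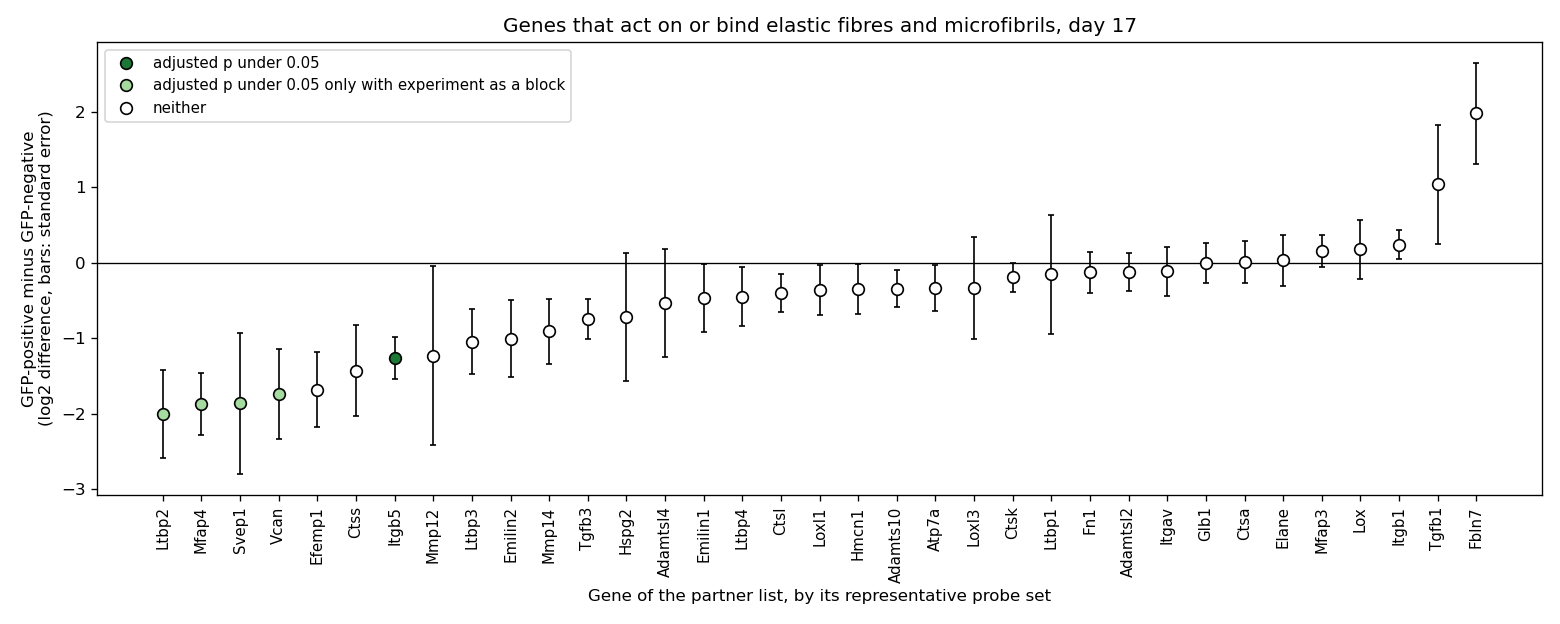
GFP-positive minus GFP-negative log2 difference with its SE at day 17 for the 35 tested genes of the partner list, sorted by value; the dark point was called by limma and light points only with experiment as a block. Itgb5 is the dark point, and the highest point is Fbln7.

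The genes most like a member were found by Pearson correlation of the log2 values of representative probe sets over the 12 sorted samples. This was done for members with a call in any comparison, which leaves out Fbln1. The genes named are a description, since these samples share experiments and groups. Fbln5 was nearest to Emp1 (r = 0.99) and Edil3 (0.99), and Fbln2 to Il6st (0.98) and Lamb1 (0.97). Mfap2 was nearest to Matn4 (0.95) and Glul (0.94), and Mfap5 99518_at to F2r (0.97) and Ccn5 (0.94). Eln was nearest to Tmem204 (0.97) and, next, to Mfap2 itself (0.94). Fbn2, by its array A probe set 103623_at, was nearest to Rab30 (0.93) and Zfp36l2 (0.92).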

How the data were processed

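The authors deposited linear intensities, a whole number of at least 10 for each probe set and array. Their summarisation and scaling are not given in the sources used here. On 44 arrays (18 A, 13 B, 13 C), trimmed means (2%) were 1069 to 1766, 1367 to 1723 and 1259 to 1606, and the number of arrays limits the precision. Of 36701 probe sets, 29131 had 1 gene symbol in the platform annotation, 724 several and 6846 none. Groups and experiments came from sample titles.

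Log2(intensity + 32) was quantile-normalised within array type. Probe sets above their array's median on at least 3 arrays were tested with limma 3.58.1 (lmFit, then eBayes with a variance trend) in 1 fit of the 12 sorted samples over the 3 array types, or of the 18 samples on array A for unsorted cells. There were 8 comparisons, with Benjamini-Hochberg adjustment over all probe sets.

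The pairing of fractions rests on the experiment names; the deviations of the paired fractions from their group means correlated at 0.292 to 0.671 on array A, 0.109 to 0.506 on B and 0.019 to 0.427 on C. Within a day, a call beside which no block is mentioned was not changed by it. Each experiment lies in 1 day, so between days it was entered only as a random block, which kept every member call. On simulated data with the day 17 GFP design (22099 probe sets, 200 changed), 33% of 4-fold and 5% of 2-fold changes were called, with 1 false call. With the unsorted day design (7455 probe sets) it was 68% and 24%, with 4 false calls. The simulated noise was independent between samples, so these rates do not cover effects shared within an experiment.

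The members, gene lists and named genes were chosen with earlier results of these data known. Values are given for every member probe set that was tested or that a comparison turned on. A gene was represented by its brightest probe set on array A, else on B, else on C. The 2 most correlated genes were named for each member with a call in any comparison. The 47 further genes count as called or not in limma.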

Additional observations from a re-analysis of the deposited data

Results flagged for a closer look

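The difference between GFP-positive and GFP-negative cells was flagged as unlike between the days for 5 probe sets, by a call or by sign alone. The interaction test, day 17 minus day 7, called Fbln5 (-2.20, adjusted p = 0.0161), Fbn2 112911_r_at (-3.68, adjusted p = 0.0394) and Mfap2 (-2.61, adjusted p = 0.0385). Neither of the larger Mfap5 probe sets was called without a block. They are listed because all 3 experiments of day 17 lay below 0 and all 3 of day 7 above 0. How many of all probe sets meet that sign rule was not counted. Mfap5 99518_at differed by -2.52 (adjusted p = 0.184, and 0.0416 with experiment as a block), from -2.74, -2.17 and -1.62 at day 17 and 0.37, 0.03 and 0.64 at day 7. Mfap5 131248_at differed by -1.67 (adjusted p = 0.725, and 0.179 with the block), from -1.21, -2.36 and -0.70 and 0.34, 0.25 and 0.15. Mfap2 also lay on opposite sides in every experiment, with -2.81, -2.68 and -1.77 at day 17 and 0.14, 0.27 and 0.17 at day 7, and the day 7 sign turned on the deposited scale. Day is joined to transgene and additions, whose parts cannot be told apart.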

How the results depend on the processing

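Of 1841 values of member probe sets under an alternative, 1672 kept direction and side of the threshold, 65 lost a call, 38 gained one, 66 uncalled values changed sign and 0 called values did. At day 17, GFP-positive against GFP-negative gave 4 calls, and 1 with only the groups compared, 8 with the replicate block, 8 with a random block and 10 without Exp106 with the block. The interaction gave 3 calls, and 1 with no filter, 1 as deposited, 5 with the block, 5 without Exp106 with the block and 0 to 3 with 1 sample left out. Day 17 against day 7 gave 2 calls in GFP-negative cells, and 1 with no filter, as deposited, with only the groups compared, with no variance trend and with any 1 sample left out (1 to 1). In unsorted cells it gave 2, and 1 as deposited, 1 with only the groups compared and 1 to 2 with 1 sample left out. Unsorted against sorted cells at day 17 gave 0, and 4 with the replicate block, 4 with a random block, 4 without Exp106 with the block and 0 to 1 with 1 sample left out. The day effect in GFP-positive cells stayed within 1.5 times its 5 calls. With 1 fit for each array type (chosen after seeing the data), day 17 GFP-positive against GFP-negative gave 5. Mfap5 read from 169062_at turned to 0.84 (day 17 GFP) and 0.72 (GFP-positive day effect), neither called.

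Over all probe sets, day 17 GFP-positive against GFP-negative gave 282 calls (24 with only the groups compared, 710 and 1010 with the fixed and random block, 779 without Exp106, 1017 with the block besides, 117 to 640 with 1 sample left out), and at day 7 0 (1 with no filter, 2 with no trend, 4 without Exp106). The interaction gave 49 (19 with no filter, 32 as deposited, 32 with no trend, 107 and 222 with the blocks, 208 without Exp106, 234 with the block besides, 0 to 126 with 1 left out). The day effect gave 1071 in GFP-positive cells (433 with only the groups compared, 2347 without Exp106, 457 to 1361), 96 in GFP-negative cells (57 with no filter, 56 as deposited, 27, 389, 17 to 71) and 426 in unsorted cells (211, 930, 144 to 402). Unsorted against sorted gave 119 at day 17 (67 with no filter, 1, 920 and 824 with the blocks, 659 without Exp106, 932 with the block besides, 7 to 467) and 0 at day 7 (1 with no trend). The causes were not tested. How signal over background limits the calls was not tested.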

Other observations

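Unsorted RNA of Exp106 was the only unsorted RNA on arrays B and C, so its values there stand alone, beside the sorted fractions of the same experiment. Fbn2 112911_r_at had 4723 units in unsorted cells, against 143 in its GFP-positive and 2913 in its GFP-negative fraction, so the unsorted value was above both. Fbn2 112910_f_at had 2299.7 units in unsorted cells, against 129 in the GFP-positive and 1659 in the GFP-negative fraction, again above both. Fbn2 130307_f_at had 318 units in unsorted cells, against 754 in the GFP-positive and 307 in the GFP-negative fraction, between them. The dim Fbln2 165843_i_at, at 170.3 units against 135 in the GFP-positive and 205 in the GFP-negative fraction, also lay between them. Mfap5 131248_at had 3522 units, against 2099 in the GFP-positive and 3421 in the GFP-negative fraction, also above both. Mfap5 169062_at had 225 units, against 1528 in the GFP-positive and 366 in the GFP-negative fraction, below both.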
